A study of Homo sapiens with 12 samples.

Results

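Poly-A RNA sequencing of 3 libraries labelled KD2 was compared with 3 libraries labelled NT, which are 6 of the 12 libraries of a study of DHODH. All were made from MDA-PCa-2b, a line established from human prostate cancer. The members were taken by their titles. KD2 is labelled as the second knock down of DHODH, and the other libraries are 3 of a first knock down (KD1) and 3 of a rescue of the second (KDR). The labels say neither what NT stands for, nor which construct was used, nor whether a group is a pool of cells or 1 clone, and no treatment or time is given. All groups share the line and its growth in BRFF-HPC1 medium with serum, although the growth protocol also names MDA-PCa-2a. Whether each library had its own culture is not in the labels, so a p-value here weighs a difference against the variation among libraries, part or all of which may be technical.

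DHODH encodes dihydroorotate dehydrogenase, which sits in the inner mitochondrial membrane, makes a precursor of all pyrimidine nucleotides and hands electrons to ubiquinone. MDA-PCa-2b cells carry the programme of the luminal cells that line prostate glands: transcription factors such as FOXA1 and HOXB13 drive genes for proteins that leave the cell through the Golgi, such as the kallikrein KLK3 (prostate-specific antigen). Such cells also carry the machinery of every dividing and secreting cell, which builds kinetochores on chromosomes, passes mRNA through nuclear pores, sorts cargo into vesicles and breaks down waste in lysosomes and proteasomes.

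DHODH RNA was not lower in the libraries labelled KD2. It stood at 9.19, 13.4 and 8.95 CPM in NT and 11.4, 13 and 14.9 in KD2 (CPM, a gene's counts brought to a common library size and scaled between libraries), so the groups overlapped, and the log2 fold change of 0.31 ± 0.14 (SE) was not called (edgeR adjusted p = 0.097; 0.52 and 0.0014 without NT replicate 2). NT and KD2 below therefore stand for the libraries labelled so, and every direction belongs to the label. Of the enzymes before and after DHODH in the pathway, CAD rose from 126 to 162 CPM and UMPS from 26.9 to 31.2 CPM (adjusted p = 0.046, and 0.11 without NT replicate 2, where UMPS was not called). All 12 listed markers of luminal prostate cells were at 1 CPM or more in both groups. The 7 endothelial and 9 immune markers were below 1 CPM in both groups, as were 9 of 10 fibroblast markers. Of 8 basal markers, 4 were at 1 CPM or more in both groups. The means of TRIM29 (9.03 to 1.76 CPM), COL17A1 (10.2 to 5.82 CPM) and KRT15 (4.34 to 2.94 CPM) were lower in KD2. That of KRT14 (1.8 to 3.32 CPM) was higher. The summed level of the basal markers ran from 23.8 to 27.9 CPM in NT and from 13.1 to 14.5 CPM in KD2. The basal keratins KRT5 and KRT6A and the cadherin DSG3 had 0 counts in both. Of 8 neuroendocrine markers, 1 was at 1 CPM or more in NT and 2 in KD2, with sums of 4.16 to 4.73 CPM and 3.82 to 4.43 CPM.

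The 6 libraries held 24557758 to 36039315 counts. NT replicate 2 stood apart: the typical spread between NT libraries was a coefficient of variation of 15.75%, against 8.555% without that library and 7.174% in KD2. Its levels leaned with gene length, with a median log2 difference from the other NT libraries of 0.10 in the shortest genes and -0.05 in the longest, with genes cut into 4 groups by exon length. The change from NT to KD2 leaned with length too: its median ran over these 4 groups from -0.07 in the shortest through -0.02 and 0.03 to 0.06 in the longest, and from -0.04 to 0.03 without NT replicate 2. List medians of that size, such as those of cytosolic tRNA synthetases and the spliceosome, are close in size to this lean, whose part in them was not tested. Results are given with it, and values without it follow where its absence changed a call or moved a median or fold change by over 1.5 times.

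Of 19373 genes tested, edgeR called 3439 higher (17.8%) and 3519 lower (18.2%) in KD2, and the median log2 fold change of all tested genes was -0.01. Both percentages are the background for every list below. Most calls were small: 3780 genes changed by less than 1.5-fold and 1382 by 1.5-fold to 2-fold, while 1093 changed by 2-fold to 4-fold and 703 by more. In all, 864 genes (4.46%) rose and 932 (4.81%) fell by at least 2-fold. All 3 KD2 libraries lay above all 3 NT libraries in 4172 genes (21.5%) and below them in 4053 (20.9%). Without NT replicate 2, 3794 genes rose (18.9%) and 3788 fell (18.9%) of 20065 tested. Of the 6958 genes called with all libraries, 6294 (90.5%) were called in the same direction without it, and 0 in the opposite direction.

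The 97 lists of pathways, complexes and gene families held 4299 tested genes, of which 844 rose and 910 fell. In the plot of called members by list, the centromere and kinetochore, small nucleolar RNA hosts, cohesin and condensin, CDK inhibitors and RB family, and YAP and TEAD targets reach furthest to the right. Secreted prostate proteins, the lysosome, Golgi and ER vesicle traffic, the reductases, and insulin and IGF signalling reach furthest to the left.

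**Figure D1:**
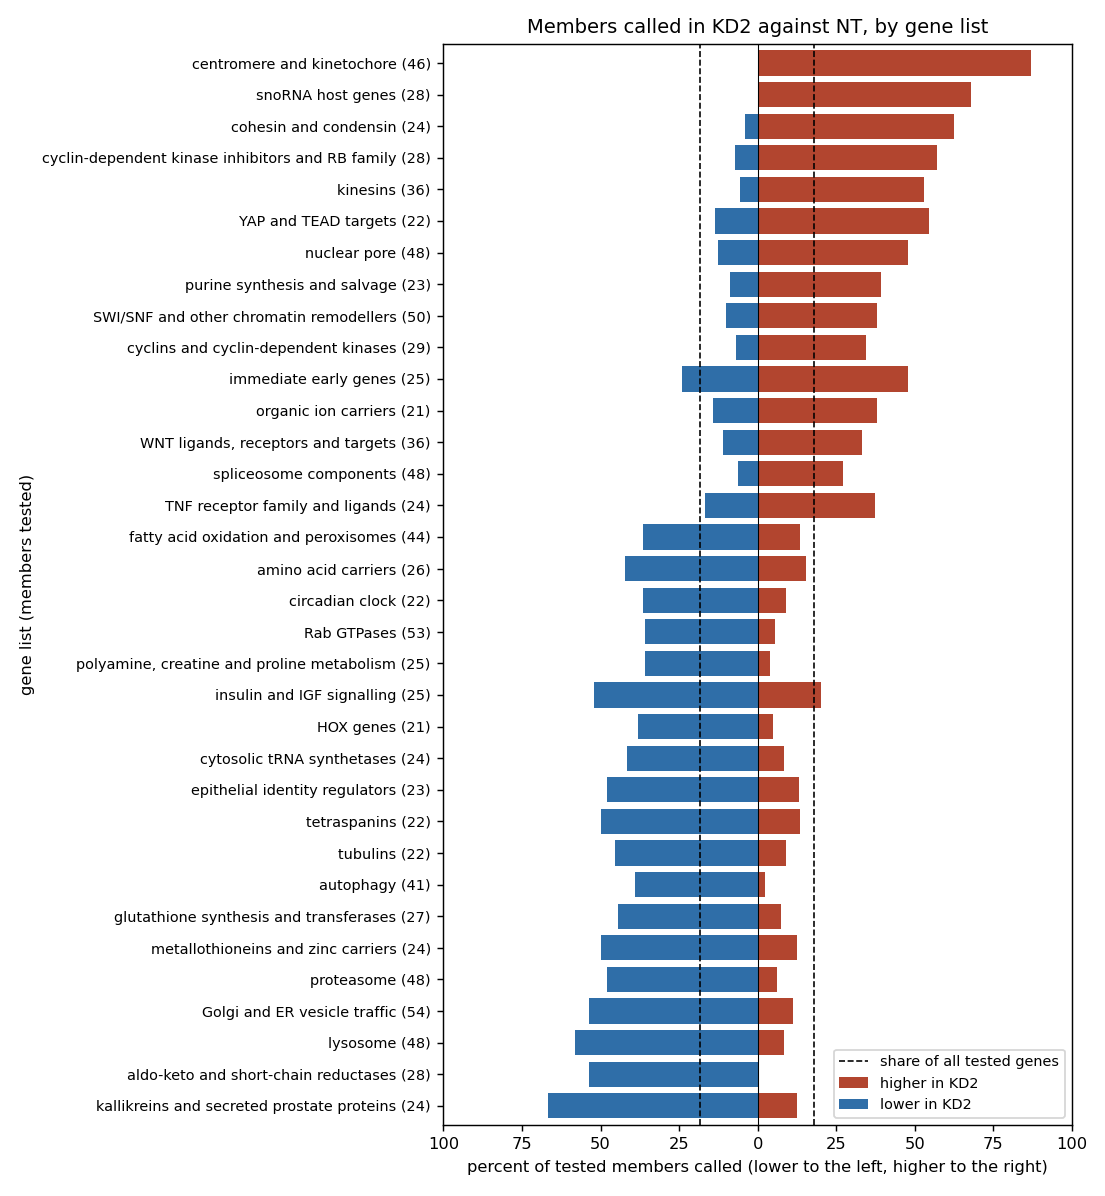
Percent of tested members called higher (right, red) and lower (left, blue) in KD2 against NT for the 34 lists of at least 20 tested genes with the largest difference between both percentages; dashed lines mark the 17.8% and 18.2% of all tested genes. The centromere and kinetochore list has 87% of its members to the right and 0 to the left, and the lysosome list 58.3% to the left.

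Genes for the centromere and kinetochore, the structures by which spindle fibres hold chromosomes, were higher in KD2 almost as a whole: of 46 tested members 40 rose and 0 fell, with a median log2 fold change of 1.12. More dividing cells and more RNA per cell cannot be told apart in such bulk RNA. CENPF, a large kinetochore protein of late G2 phase, stood at 13.1, 9.82 and 11.2 CPM in NT and 47, 46.3 and 43.9 in KD2 and rose by 2.01 ± 0.11 on the log2 scale (adjusted p = 9.2e-13). BIRC5 (survivin), the targeting subunit of the chromosomal passenger complex, stood at 11.4, 11.4 and 9.98 CPM in NT and 46, 47.9 and 45 in KD2. For both genes every KD2 library was above every NT library by more than the spread of either group. HJURP, the chaperone that loads the centromeric histone CENPA, rose from 7.99 to 31 CPM, and INCENP, the scaffold of the passenger complex, from 25.5 to 59.1 CPM. The 6 members not called were CENPB (-0.03), CENPS (0.15), CENPX (-0.19), PMF1 (-0.30), SKA2 (0.19) and ZW10 (0.11, and 0.23 and called higher without NT replicate 2); CENPB binds the repeat DNA of the centromere and ZW10 serves the spindle checkpoint.

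Among the rings and motors that handle chromosomes, rises outnumbered falls. For cohesin and condensin, of 24 tested members 15 rose and 1 fell, with a median log2 fold change of 0.27. The rise was found in the condensin subunits NCAPG (1.74), NCAPH (1.63) and SMC2 (1.46) and in CDCA5 (sororin, 1.83), which holds sister chromatids together, while the cohesin ring subunit SMC3 rose by 0.60 and the cohesin deacetylase HDAC8 fell by 0.70. Among kinesins, of 36 tested members 19 rose and 2 fell, with a median log2 fold change of 0.56. They include spindle motors such as KIF11 (13.5 to 54.3 CPM) and KIFC1 (7.7 to 29 CPM), and KIF14, a motor of cytokinesis, at 5.12, 3.21 and 6.63 CPM in NT and 49.7, 45.6 and 47.9 in KD2. KIF14 had the largest rise of the named kinesins, and its groups lay far apart. Motors of cargo transport were split. KIF3A, which carries cargo in cilia and axons, stood at 56.8, 35.1 and 59.1 CPM in NT and 366, 348 and 337 in KD2 and rose by 2.80 ± 0.12, KIF1A rose from 26.2 to 83 CPM, and KIF5C fell from 358 to 203 CPM.

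Tubulins, the subunits of the tracks on which these motors run, fell more often than they rose: of 22 tested members 2 rose and 10 fell, with a median log2 fold change of -0.37. TUBB and TUBA1B rose by 0.51 and 0.65, while TUBB2A (-1.43), TUBB4B (-0.46) and TUBA1C (-0.53) fell; near-identical copies make single tubulins uncertain. Among factors that time the cycle, rises outnumbered falls. Of the list of CDK inhibitors, RB family, E2F and their partners, of 28 tested members 16 rose and 2 fell, with a median log2 fold change of 0.34. E2F2 rose from 5.11 to 22.6 CPM, FOXM1, which switches on genes of mitosis, from 11.4 to 39.3 CPM, and MYBL2 from 7.5 to 22.1 CPM. CDKN2A, which encodes the inhibitors p16 and p14ARF, fell from 5.87 to 1.76 CPM, while the p53 target CDKN1A (p21) rose by 0.29. Core histone genes, whose mRNAs mostly lack the poly-A tail that the library kit selects, were called rarely: 2 of 31 tested members rose and 1 fell (median log2 fold change 0.12, and 0.01 without NT replicate 2). Histone variants and chaperones were mixed, with ASF1B (1.78) and HELLS (1.60) higher and MACROH2A2 (-1.54) lower.

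The promoters of kinetochore genes are known for a pair of elements, the cell cycle homology region (CHR) and the CCAAT box, through which the DREAM complex and FOXM1 with MYBL2, and the factor NF-Y, act. RefSeq promoters (GRCh38.p14, 250 bases before the annotated start) were matched by symbol for 12197 of the tested genes, or 63%. The CHR letters TTTGAA or TTCGAA were found on either strand in 9 of 37 kinetochore promoters (24.3%) and 9.72% of all matched promoters. Shares were alike for kinesins (24.1%), cohesin and condensin (25%) and small nucleolar RNA hosts (20.8%). The letters were in 11.4% of promoters of called higher genes and 8.46% of called lower genes. Among genes called with at least a 2-fold change the shares were close, 13.5% for higher and 12.7% for lower genes. CCAAT was found in 56.8% of kinetochore promoters against 34.9% of all. The promoters of the 3 kinetochore genes with the smallest adjusted p that hold both motifs are shown 5′ to 3′ on the gene's strand, with CHR and CCAAT letters (or their reverse complements) in capitals.
HJURP (chr2:233854536-233854785, minus strand): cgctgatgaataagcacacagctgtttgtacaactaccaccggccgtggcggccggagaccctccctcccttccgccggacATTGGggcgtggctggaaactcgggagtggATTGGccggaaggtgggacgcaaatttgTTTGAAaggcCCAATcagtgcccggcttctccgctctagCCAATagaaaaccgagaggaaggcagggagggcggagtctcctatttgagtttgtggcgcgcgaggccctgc
INCENP (chr11:62123761-62124010, plus strand): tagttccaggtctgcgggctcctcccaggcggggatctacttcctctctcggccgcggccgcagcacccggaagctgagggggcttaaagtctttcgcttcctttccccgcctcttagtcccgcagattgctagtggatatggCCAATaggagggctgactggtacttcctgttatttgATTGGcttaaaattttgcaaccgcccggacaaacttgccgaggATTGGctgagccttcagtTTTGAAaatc
ZWINT (chr10:56361260-56361509, minus strand): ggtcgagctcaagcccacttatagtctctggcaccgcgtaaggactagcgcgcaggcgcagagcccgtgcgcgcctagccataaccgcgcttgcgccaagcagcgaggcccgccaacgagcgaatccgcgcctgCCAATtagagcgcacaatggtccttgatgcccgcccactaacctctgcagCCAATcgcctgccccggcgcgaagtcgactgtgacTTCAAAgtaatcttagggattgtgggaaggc
HJURP holds 4 CCAAT boxes and a CHR at base -111 from the start, INCENP 3 and a CHR at -10, and ZWINT 2 and a CHR at -31. A match is a run of letters and not a measured binding site.

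Among nuclear pore, chromatin and splicing genes, rises outnumbered falls, and most rises were small. Of nuclear pore and transport genes, of 48 tested members 23 rose and 6 fell, with a median log2 fold change of 0.18; XPO6, which exports actin, rose from 297 to 627 CPM and stood out from the pore subunits NUP160 (0.64), NUP54 (0.73) and RANBP2 (0.45). NUP93, a scaffold nucleoporin, and XPOT, the exporter of tRNA, fell by 0.69 and 0.48. Of chromatin remodellers, of 50 tested members 19 rose and 5 fell, with a median log2 fold change of 0.15, and 26 rose without NT replicate 2. CHD6, a helicase of the CHD family, stood at 158, 162 and 170 CPM in NT and 424, 433 and 432 in KD2 and rose by 1.39 ± 0.05. Its KD2 libraries were well above every NT library, whereas the SWI/SNF subunits SMARCE1 (0.66), SMARCC1 (0.30) and SMARCA4 (0.32) moved less. For spliceosome components, of 48 tested members 13 rose and 3 fell, with a median log2 fold change of 0.10, led by PRPF4 (0.69) and SF3B3 (0.38). Among regulators of cell type splicing, KHDRBS3 rose from 27.3 to 68.1 CPM and the polypyrimidine tract proteins PTBP1 (0.33) and PTBP2 (0.63) rose, while the epithelial splicing regulators ESRP1 (-0.60) and ESRP2 (-0.28, and -0.13 without NT replicate 2) fell.

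The hosts of small nucleolar RNAs, which guide the modification of ribosomal RNA, rose in most members tested, and none fell: of 28 tested members 19 rose and 0 fell, with a median log2 fold change of 0.49. SNHG3 stood at 40.7, 40.3 and 40.6 CPM in NT and 72.8, 76.2 and 76.4 in KD2, and SNHG19 at 38.5, 41.5 and 37 CPM in NT and 68.3, 73.7 and 77.1 in KD2. In both genes the KD2 libraries were close together and above every NT library. GAS5 rose by 0.58 ± 0.06, ZFAS1 by 0.85 ± 0.11 and SNHG14 by 0.47 ± 0.05, and the hosts SNHG7 (-0.05), SNHG12 (0.03) and SNHG17 (0.07) were not called. Translation factors changed in both directions: of 74 tested members 24 rose and 11 fell, with a median log2 fold change of 0.05: EIF4B (0.60), the eIF3 subunits EIF3L (0.54) and EIF3E (0.41) and the poly-A binding protein PABPC1 (0.32) rose, while EIF1 (-0.52), which selects the start codon, and EIF4EBP1 (-0.62), a brake on cap binding, fell.

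Among enzymes that charge tRNA, falls outnumbered rises. Of cytosolic tRNA synthetases, of 24 tested members 2 rose and 10 fell, with a median log2 fold change of -0.07. GARS1, for glycine, stood at 380, 389 and 375 CPM in NT and 227, 213 and 198 in KD2, and AARS1, for alanine, at 534, 634 and 541 CPM in NT and 351, 357 and 362 in KD2. All KD2 libraries were below all NT libraries in both genes. YARS1 (-0.73), CARS1 (-0.78) and MARS1 (-0.63) also fell, and LARS1 (0.24) and QARS1 (0.26) rose. Of mitochondrial synthetases, of 17 tested members 0 rose and 4 fell, with a median log2 fold change of -0.09. Among carriers that bring in amino acids, falls also outnumbered rises: of 26 tested members 4 rose and 11 fell, with a median log2 fold change of -0.17. SLC3A2 and SLC7A5, the chains of a carrier for large neutral amino acids, fell from 899 to 473 CPM and from 1338 to 851 CPM, the glutamine carrier SLC1A5 from 729 to 460 CPM, and the cystine carrier SLC7A11 from 481 to 322 CPM. SLC16A10, a carrier of aromatic amino acids, rose from 8.67 to 21 CPM.

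**Figure D2:**
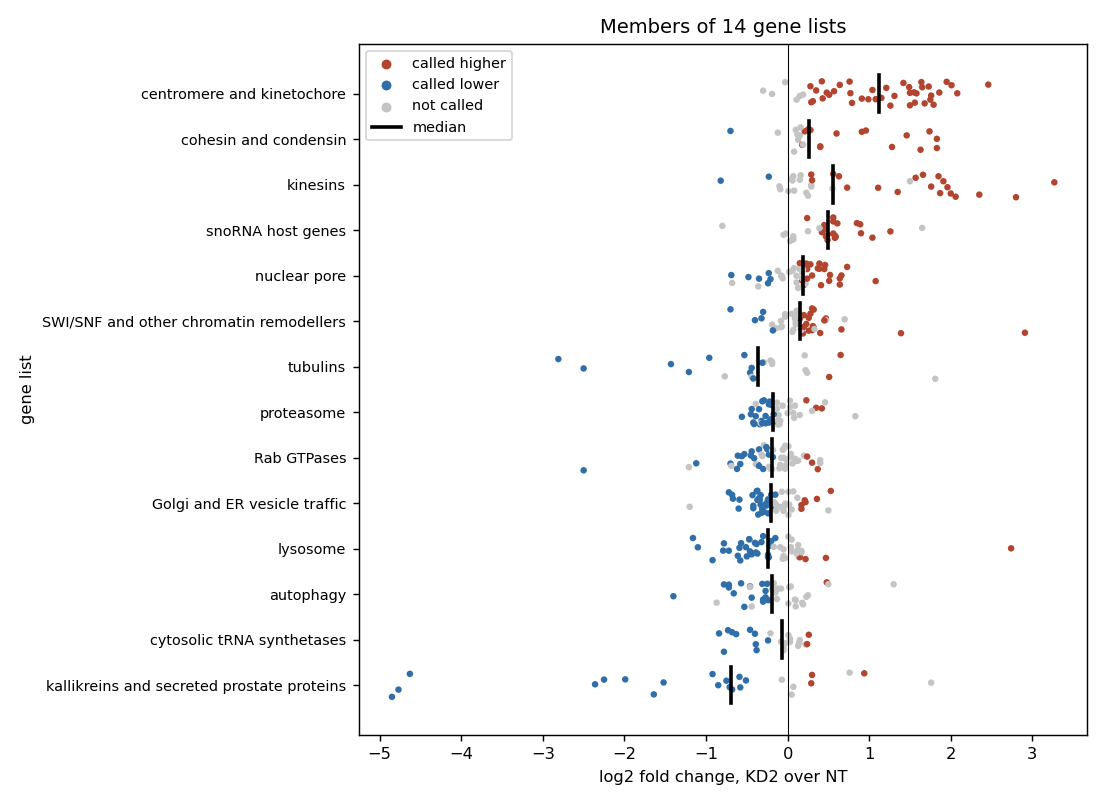
Log2 fold change (KD2 over NT) of each tested member of 14 gene lists; red and blue points are called, grey points are not, and the black bar is the list median. The centromere and kinetochore median is at 1.12, and the medians of the Golgi, lysosome and proteasome lists are at -0.20, -0.23 and -0.18.

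In the lists of Golgi and ER vesicle traffic, Rab GTPases, lysosome, autophagy and proteasome, falls outnumbered rises. For Golgi and vesicle traffic, of 54 tested members 6 rose and 29 fell, with a median log2 fold change of -0.20. The coat protein subunits COPG1 and COPB2, which form vesicles that run between Golgi and endoplasmic reticulum, stood at 190, 228 and 185 CPM in NT and 125, 122 and 120 in KD2 and at 204, 215 and 201 CPM in NT and 138, 132 and 117 in KD2. Neither gene had a KD2 library within the range of NT. The golgin GOLGA5 fell by 0.67 and the cargo receptor TMED9 by 0.42, while SEC22C, of early vesicle transport, rose from 165 to 239 CPM. Of Rab GTPases, the switches of vesicle identity, of 53 tested members 3 rose and 19 fell, with a median log2 fold change of -0.19. RAB27B, which docks secretory granules and exosomes at the surface, stood at 118, 84.5 and 124 CPM in NT and 19.7, 21.6 and 16.4 in KD2 and fell by 2.50 (SE 0.12, adjusted p = 1.1e-13). This was the largest fall of a Rab gene of at least 1 CPM, and RAB1B (-0.58), RAB2A (-0.53) and RAB10 (-0.56) fell by less.

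For lysosomal genes, of 48 tested members 4 rose and 28 fell, with a median log2 fold change of -0.23. NEU1, the lysosomal sialidase, stood at 190, 211 and 188 CPM in NT and 84, 89 and 90.3 in KD2, and TPP1, a peptidase, at 98.1, 110 and 86.2 CPM in NT and 47.4, 45.6 and 44 in KD2. The 3 KD2 libraries of each gene lay below the lowest NT library by far more than they differed among themselves. The protease CTSD (cathepsin D) fell from 111 to 59 CPM, the membrane protein LAMP1 from 245 to 177 CPM and the proton pump subunit ATP6V0D1 from 100 to 67.1 CPM, whereas LIPA, which frees cholesterol and fatty acids, rose by 0.47. Of autophagy genes, of 41 tested members 1 rose and 16 fell, with a median log2 fold change of -0.19, with GABARAPL1, which decorates the autophagosome membrane, at 24.1, 24.9 and 22.6 CPM in NT and 7.89, 9.34 and 9.94 in KD2, and the cargo receptor SQSTM1 (p62) lower by 0.66. Falls among proteasome genes were small: of 48 tested members 3 rose and 23 fell, with a median log2 fold change of -0.18; PSMA7 (-0.56), PSMC2 (-0.45) and PSMD14 (-0.41) fell and the immune activator subunit PSME2 (0.42) rose. Tetraspanins, which organise membranes and vesicles, were lower in 11 of 22 tested members, including CD63 (-0.54) and CD9 (-0.34). Without NT replicate 2 the counts of genes that fell were 31 for Golgi and vesicle traffic, 22 for Rab genes, 27 for lysosome, 16 for autophagy and 24 for proteasome.

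Lysosomal promoters are known for the CLEAR element, a palindrome read by TFEB and its relatives. The letters TCACGTGA were in 16.1% of matched lysosomal promoters and in 1.54% of all matched promoters, 1.36% of those of called higher genes and 1.69% of those of called lower genes. The 2 called lysosomal genes with the smallest adjusted p that hold it are shown, with the element in capitals; it starts at base -60 in ATP6V0D1 and -29 in LAMP1.
ATP6V0D1 (chr16:67481158-67481407, minus strand): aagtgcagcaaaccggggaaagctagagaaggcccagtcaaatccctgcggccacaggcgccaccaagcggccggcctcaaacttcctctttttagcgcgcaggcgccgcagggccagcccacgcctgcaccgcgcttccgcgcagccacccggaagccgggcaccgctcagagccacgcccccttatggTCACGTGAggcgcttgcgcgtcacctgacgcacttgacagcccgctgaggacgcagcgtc
LAMP1 (chr13:113296989-113297238, plus strand): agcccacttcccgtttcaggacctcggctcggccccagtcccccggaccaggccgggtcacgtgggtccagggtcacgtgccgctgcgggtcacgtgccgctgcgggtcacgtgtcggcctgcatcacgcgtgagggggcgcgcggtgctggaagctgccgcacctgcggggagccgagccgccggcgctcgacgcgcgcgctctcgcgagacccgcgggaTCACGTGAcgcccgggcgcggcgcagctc
The share with this element was close to that of all genes among both the called higher and the called lower genes.

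Among products that luminal cells secrete or display, falls outnumbered rises. Of kallikreins and secreted or surface prostate proteins, of 24 tested members 3 rose and 16 fell, with a median log2 fold change of -0.69. KLK3 stood at 8462, 10360 and 8043 CPM in NT and 6184, 6325 and 6335 in KD2, ACP3 (prostatic acid phosphatase) at 625, 590 and 649 CPM in NT and 199, 196 and 203 in KD2, and SPON2, a secreted matrix protein, at 953, 1100 and 1062 CPM in NT and 35.1, 32.8 and 40.1 in KD2. None of these groups overlapped, and the falls ran from -0.51 for KLK3 to -4.85 for SPON2. The cold channel TRPM8 fell from 20.2 to 4.23 CPM, MSMB (microseminoprotein) from 21.7 to 5.44 CPM and the serine protease TMPRSS2 from 3177 to 1894 CPM. Luminal transcription factors did not share one direction: of 28 tested members 8 rose and 10 fell, with a median log2 fold change of 0.03, and 0.01 without NT replicate 2. HOXB13 fell by 0.49 and the thyroid hormone receptor THRB from 36.3 to 15.9 CPM, while GATA2 (0.67), SOX9 (0.90), VDR (0.66) and MEIS1 (1.02) rose. PPARG, a master factor of fat cells, rose from 0.384 to 4.88 CPM.

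Prostate cells concentrate zinc, and of 24 tested members 3 rose and 12 fell, with a median log2 fold change of -0.23 among zinc carriers and metallothioneins. SLC30A4, which loads zinc into vesicles, stood at 1156, 967 and 1153 CPM in NT and 104, 96.6 and 93.6 in KD2 and fell by 3.48 (SE 0.06, adjusted p = 3.5e-21). Its KD2 libraries were far below every NT library. The metal-binding MT2A fell from 55.6 to 26 CPM and MT1G from 9.82 to 2.11 CPM, and the zinc carriers SLC39A7 (-0.57) and SLC39A10 (-0.52) fell. In steroid conversion 5 of 23 tested members rose and 7 fell (median log2 fold change -0.19): SRD5A1, which makes dihydrotestosterone, rose from 40.6 to 74 CPM, and HSD17B2, which inactivates testosterone, fell from 38.3 to 22.2 CPM. Of HOX genes, which mark position along the body, of 21 tested members 1 rose and 8 fell, with a median log2 fold change of -0.70, with HOXC4 at 33.2, 35.4 and 28.1 CPM in NT and 8, 8.85 and 6.93 in KD2 and HOXC6 lower by 0.95; the neighbours HOXC12 (0.26) and HOXC13 (-0.13) were not called. Long noncoding RNAs of prostate cancer went both ways: PCAT14 rose from 220 to 858 CPM, while PCA3 fell from 11.8 to 3.92 CPM and ARLNC1 by 0.87.

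**Figure D3:**
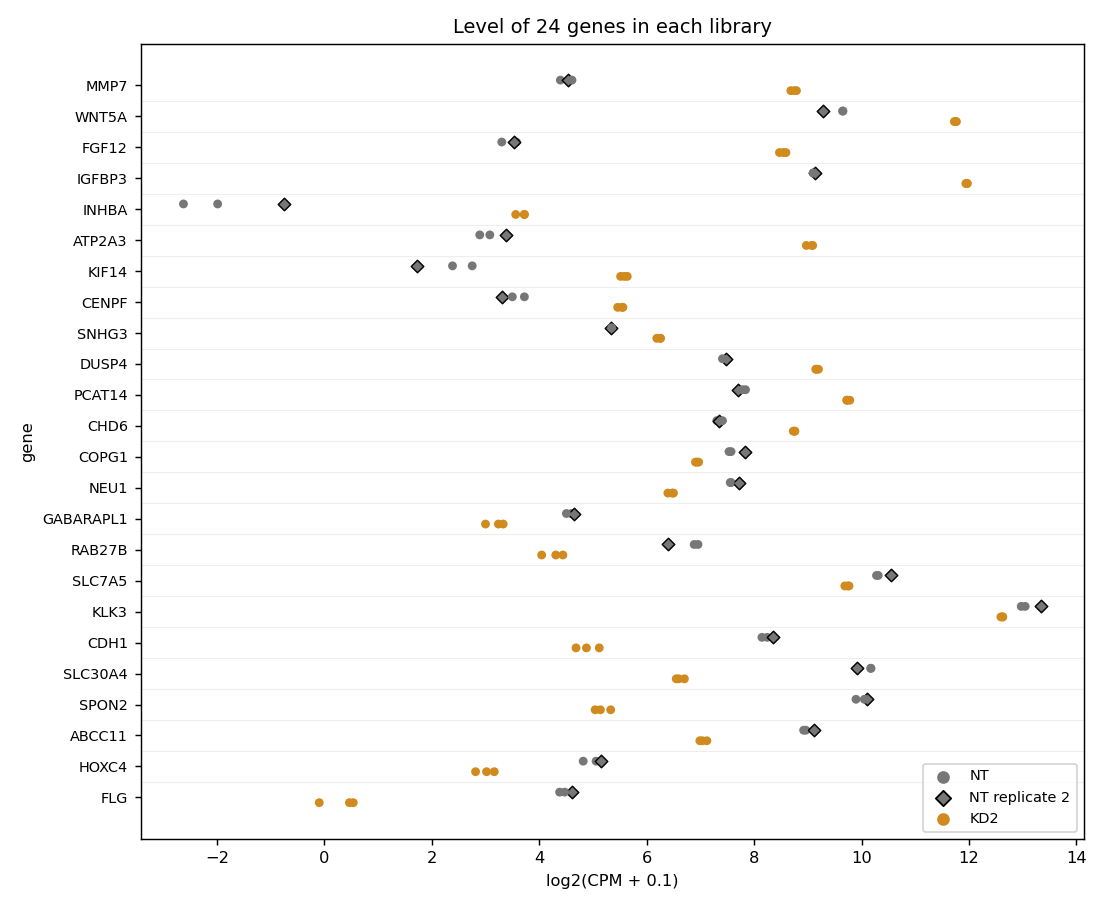
Level of 24 genes in each of 6 libraries as log2(CPM + 0.1); grey points are NT (the diamond is NT replicate 2) and orange points KD2. The genes were chosen after their values were seen; the KD2 libraries lie to the right of all NT libraries in the upper 12 genes, MMP7 to CHD6, and to the left in the lower 12, COPG1 to FLG.

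Genes of epithelial adhesion and identity included a large fall of E-cadherin beside smaller changes in both directions. CDH1 (E-cadherin), the adhesion protein of epithelial cells, stood at 303, 328 and 283 CPM in NT and 25.6, 29.3 and 34.6 in KD2. Its partner CTNNA2 fell from 20.2 to 3 CPM and CTNND1 from 20.1 to 13.2 CPM, while CTNNB1 (0.13) and JUP (0.26) rose slightly. Of mesenchymal genes and factors of epithelial to mesenchymal transition 1 of 11 tested members rose and 1 fell (median log2 fold change 0.22), where FN1 (fibronectin) rose by 1.07, LOXL2 fell by 0.83, and SNAI1 (0.48) and TWIST1 (0.22) were not called. The median of this short list was 0.06 without KD2 replicate 2, 0.47 with a filter of 1 CPM and 0.48 with only NT and KD2 libraries. Of epithelial regulators, of 23 tested members 3 rose and 11 fell, with a median log2 fold change of -0.18, with EPCAM (-0.33) and ST14 (-0.34) among those that fell and KLF5 (0.27) among those that rose. Tight junction genes had CLDN8 (22.2 to 3.66 CPM) and the polarity factor PARD3 (262 to 117 CPM) lower and CLDN3 (0.40) and OCLN (0.43) higher. The actin crosslinker FLNA rose from 84.4 to 293 CPM and the actin binder CNN3 fell from 23 to 1.84 CPM.

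Among basement membrane genes and integrins, rises outnumbered falls. Of laminins and basement membrane genes, of 16 tested members 8 rose and 2 fell, with a median log2 fold change of 0.29: HSPG2 (perlecan) rose from 18.4 to 49.2 CPM, LAMA3 by 0.52 and LAMC1 by 0.37. Among integrins, of 18 tested members 7 rose and 2 fell, with a median log2 fold change of 0.25; ITGA2 (0.59), ITGAV (0.45, and 0.30 without NT replicate 2) and ITGA6 (0.39) rose, and the fibronectin receptor chain ITGA5 (-0.71) fell. The matrix proteases held larger changes, and of 36 tested members 11 rose and 5 fell, with a median log2 fold change of 0.15. MMP7 (matrilysin), which cuts matrix and surface proteins, stood at 20.9, 23 and 24.3 CPM in NT and 442, 411 and 432 in KD2 and rose by 4.24 ± 0.07 (adjusted p = 8.5e-22). The protease ADAMTS9 rose from 0.108 to 7.77 CPM and the inhibitor TIMP4 from 0.373 to 8.97 CPM, both near zero in NT, and ADAMTS1 fell from 36.3 to 11.6 CPM. Among proteoglycan genes SDC4 (0.93) and the glypicans GPC1 (0.74), GPC4 (0.87) and GPC6 (2.27) rose, and GPC2 (-1.41) and SDC2 (-0.41) fell.

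Large rises were found in secreted ligands and in a relative of the fibroblast growth factors. INHBA, the chain of activin A, stood at 0.0621, 0.496 and 0.152 CPM in NT and 13.1, 11.7 and 13.1 in KD2, and WNT5A, a ligand of noncanonical WNT signalling, at 801, 620 and 806 CPM in NT and 3484, 3434 and 3394 in KD2. FGF12, a relative of the fibroblast growth factors that stays in the cell and binds sodium channels, stood at 11.8, 11.4 and 9.76 CPM in NT and 386, 373 and 355 in KD2. All 3 genes had every KD2 library far above the highest NT library. In the activin, TGF-beta and BMP families the receptor ACVR1C rose (2.08 to 7.97 CPM) and BMPR1B fell (41.1 to 13.7 CPM), and of the targets and inhibitors ID2 (1.23), ID3 (0.78) and BAMBI (1.29) rose and PMEPA1 (-0.77) fell. In the WNT list 12 of 36 tested members rose and 4 fell (median log2 fold change 0.15): the WNT5A receptor ROR1 rose by 0.65, FZD4 by 0.98, and WNT5B (-2.95) and FZD8 (-1.64) fell. Hedgehog genes had 5 of 9 tested members rose and 1 fell (median log2 fold change 0.55), with the co-receptor CDON (1.26), SMO (0.59) and GLI3 (0.80) higher and the target and receptor PTCH1 (-0.48) lower.

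Feedback genes of the MAP kinase route, which rise when ERK is active, held a group of strong rises within a list of mixed direction, in which 8 of 26 tested members rose and 7 fell (median log2 fold change 0.05, and 0.00 without NT replicate 2). DUSP4, a phosphatase of ERK, stood at 180, 177 and 170 CPM in NT and 567, 572 and 587 in KD2, SPRY4 at 262, 297 and 266 CPM in NT and 800, 809 and 821 in KD2 and the ETS factor ETV1 at 398, 317 and 365 CPM in NT and 1428, 1399 and 1353 in KD2. KD2 libraries were above NT in each. DUSP5 (1.46) and SPRY1 (1.66) rose too, while DUSP10 (-1.09), DUSP1 (-0.14) and PHLDA2 (-0.57) fell, as did the EGF receptor ligands TGFA (-0.85) and HBEGF (-1.38). Targets and partners of YAP, the effector of the Hippo pathway, were more often higher: of 22 tested members 12 rose and 3 fell, with a median log2 fold change of 0.36. YAP1 rose by 0.55, TEAD4 by 0.85 and CCN1 by 0.50, and the YAP partner AMOTL1 fell from 85.5 to 10.4 CPM. In insulin and IGF signalling 5 of 25 tested members rose and 13 fell (median log2 fold change -0.22): IGFBP3, which binds IGF in the extracellular space, stood at 548, 560 and 549 CPM in NT and 4002, 3936 and 4008 in KD2, and the receptors IGF1R (-0.75) and IGF2R (-0.66) and the glucose-sensing TXNIP (-1.22) fell. Guidance genes changed in both directions: SEMA3C (1.64) and PLXNA2 (1.70) rose and SEMA3D (-1.78) fell, and EPHB2 (2.01) rose and EFNA5 (-1.77) fell. The semaphorin list had 8 genes higher of 26, and 14 without NT replicate 2.

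Carriers and channels held large single changes with no common direction. ATP2A3, which pumps calcium into the endoplasmic reticulum, stood at 8.35, 10.3 and 7.32 CPM in NT and 502, 545 and 539 in KD2 and rose by 5.93 ± 0.10, against 0.33 ± 0.04 for its relative ATP2A2. Its NT libraries were low and its KD2 libraries were within a narrow range. Among ABC transporters 12 of 35 tested members rose and 10 fell (median log2 fold change -0.04, and 0.06 without NT replicate 2): ABCC11, an exporter of bile acids and steroid sulfates, fell from 512 to 132 CPM and ABCC5 from 821 to 410 CPM, while ABCC1 (319 to 540 CPM), ABCC4 (61.2 to 124 CPM) and the cholesterol exporter ABCG1 (7.28 to 20 CPM) rose. The organic cation carrier SLC22A3 fell from 114 to 1.2 CPM, and the sodium pump subunit ATP1B3 fell by 0.46. Nucleoside carriers SLC29A1 (0.65) and SLC29A2 (0.81), which take up nucleosides from the medium, rose. The glucose carrier SLC5A1 rose from 0.139 to 3.87 CPM, and SLC2A12 fell from 31 to 13.9 CPM.

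Among reductases, glutathione genes and fatty acid oxidation, falls outnumbered rises. Of aldo-keto and short-chain reductases, of 28 tested members 0 rose and 15 fell, with a median log2 fold change of -0.40, among them DHRS2 (80.6 to 2.85 CPM), the retinal reductase RDH11 (170 to 94 CPM) and the prostaglandin dehydrogenase HPGD, which stood at 185, 141 and 183 CPM in NT and 87.4, 80.7 and 79 in KD2. No KD2 library of HPGD reached the NT range. Of glutathione genes, of 27 tested members 2 rose and 12 fell, with a median log2 fold change of -0.14: GCLM (-0.50), the transferase GSTZ1 (-0.69) and the peroxidases GPX1 (-0.46) and GPX4 (-0.26, and -0.17 without NT replicate 2) fell. In fatty acid oxidation and peroxisomes 6 of 44 tested members rose and 16 fell (median log2 fold change -0.12), with PPARGC1A (PGC-1 alpha), a driver of mitochondrial genes, lower (8.27 to 3.16 CPM), the dehydrogenase ACADS lower (-1.05) and ACAA2 higher (2.20). Lipid synthesis showed no such lean: in phospholipid and triglyceride synthesis 10 of 41 tested members rose and 10 fell (median log2 fold change 0.05, and 0.14 without NT replicate 2), with 16 higher and 9 lower without NT replicate 2, and in sphingolipid synthesis 5 of 33 tested members rose and 7 fell (median log2 fold change -0.05). The list of purine synthesis, salvage and breakdown leaned the other way: 9 of 23 tested members rose and 2 fell (median log2 fold change 0.15). The synthesis genes PAICS, PFAS and PPAT rose by 0.38, 0.52 and 0.49 (PPAT by 0.29 without NT replicate 2). XDH (xanthine dehydrogenase), an enzyme of purine breakdown, rose from 3.92 to 22.2 CPM. In polyamine metabolism AMD1 (-0.40) and OAZ1 (-0.43) fell, and the creatine kinase CKB rose (0.59). Enzymes of mucin-type glycans changed in both directions: GALNT12 fell from 9.19 to 0.44 CPM and GALNT10 from 175 to 93.5 CPM, while B3GNT6 rose from 0.376 to 11.5 CPM and GALNT13 from 1.28 to 5.06 CPM.

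Immune-related genes that epithelial cells express were mixed. Among interferon-stimulated genes 12 of 38 tested members rose and 5 fell (median log2 fold change 0.19): MX1 (42 to 15 CPM) and ISG20 (8.58 to 2.76 CPM) fell, and GBP2 (3.24 to 14.4 CPM) and IRF1 (3.92 to 8.39 CPM) rose. Of class I antigen presentation, B2M fell by 0.60 and the peptide pump subunit TAP2 rose by 0.86. The class II peptide exchangers HLA-DMA (7.17 to 14.5 CPM) and HLA-DMB (0.969 to 3.76 CPM) rose from low levels. Related HLA copies share reads, so single HLA genes are uncertain. TNFRSF14 rose from 7.55 to 27.8 CPM and the complement regulator CD55 fell from 54.6 to 29.8 CPM. Of cancer-testis antigens, normally kept to germ cells, 8 of 29 tested members rose and 6 fell (median log2 fold change 0.01, and 0.03 without NT replicate 2): PRAME stood at 24.5, 28.3 and 26.3 CPM in NT and 82.7, 79.1 and 75.5 in KD2 and MAGEA4 at 149, 165 and 155 CPM in NT and 401, 411 and 409 in KD2, both above NT in each library, and MAGEA11 fell (9.09 to 3.96 CPM).

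Some genes were near silence in 1 group. With at most 3 counts summed over a group and at least 1 CPM on average in the other, 6 genes were near silence in NT and 26 in KD2. The largest is an unnamed gene (ENSG00000254366, chromosome 8, 77399072 to 77537290) with 0 counts in NT and 10686 in KD2, that is 124, 125 and 114 CPM, at least 3590-fold above a floor of 3 counts over the group. It was at 0 CPM in the 3 KD1 libraries and at 0.0292, 0 and 0 CPM in KDR. C2CD5-AS1 (chromosome 12, 22409237 to 22618868), an antisense RNA, had 2 counts in NT and 2306 in KD2. Unstranded counting cannot tell from which strand these reads came. C2CD5-AS1 was at 0.0354, 0 and 0 CPM in KD1 and at 0.0292, 0.193 and 0.11 CPM in KDR. IGFBP1, ZNF90, TCP11 and NAP1L3 were the other 4 and reached 1.62, 1.09, 1.58 and 1.12 CPM in KD2. Of the 26 genes near silence in KD2, GALNT17, which starts O-glycans, had 1539 counts in NT and 2 in KD2, the zinc finger gene ZNF630 had 666 and 0 (at least 220-fold lower), and IL1RAPL1, a synaptic adhesion gene, 567 and 0 (at least 188-fold lower). GALNT17 was at 16.5, 19.2 and 16.1 CPM in KD1 and 0.409, 0.0645 and 0.366 in KDR, so KDR was low with KD2 for this gene and KD1 stood with NT. The others include CUX2, a homeobox gene (367 and 3 counts), and the aminoacylase ACY3 (258 and 2). PROS2P, a pseudogene of PROS1 (242 and 0), was chosen after its values were seen. Named by their role and after their values were seen, QPRT (111 and 0) and TDO2 (114 and 1) act in the route from tryptophan to NAD.

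Changes were spread over all chromosomes: the median log2 fold change of a chromosome ran from -0.08 to 0.05 over the 22 autosomes and X, and the share of genes called from 30.8% to 39.2%. Some neighbours moved together all the same. Runs of at least 4 adjacent tested genes, all called in 1 direction by at least 2-fold, numbered 19, of which 8 were higher and 11 lower. Neighbours can share reads, overlap or antisense partners, and the runs include such genes. The windows below, and the genes named in them that were not called, were chosen after their values were seen.

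The longest run, of 12 genes, lies in the POTE region of chromosome 2. Between 130006200 and 131364168, 28 of 36 tested genes fell and 1 rose, with a median of -3.32. POTE genes encode ankyrin repeat proteins of prostate, ovary, testis and placenta, and exist in near-identical copies, so the count of each copy is uncertain. POTEI stood at 7.55, 9.62 and 9.91 CPM in NT and 0.71, 0.868 and 0.25 in KD2, POTEJ at 8.76, 7.34 and 7.09 CPM in NT and 0.568, 0.555 and 0.417 in KD2, POTEF at 4.35, 4.5 and 2.59 CPM in NT and 0.624, 0.347 and 0.626 in KD2 and POTEE at 4.01, 3.27 and 3.77 CPM in NT and 0.937, 0.312 and 0.417 in KD2. In each the KD2 libraries were far below all NT libraries. The pseudogenes KLF2P1, KLF2P2, KLF2P3 and KLF2P4 beside them all fell. Between these copies lie genes that did not move with them: SMPD4 (0.13, and 0.23 and called higher without NT replicate 2), MZT2B (-0.06) and FAM168B (-0.08) were not called, and CCDC74B rose by 0.19. Of 8 tested genes named POTE, 4 fell and 4 were not called, with a median of -2.52. Those not called include copies on other chromosomes, also chosen after their values were seen. They are POTEG (-0.79), POTEM (-0.13) and POTEH (-0.83, and -1.06 and called lower without NT replicate 2). Another copy that was not called is not listed here.

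On chromosome 11 between 102110447 and 102705769, 9 of 11 tested genes rose and 0 fell. In order, YAP1 (0.55), BIRC2 (0.62) and TMEM123 (1.29) rose, then MMP7 (4.24), MMP20, an enamel protease (0.0762 to 5.16 CPM), and MMP27 (0.0207 to 0.6 CPM) followed. On chromosome 7 a run of 4 held KCND2, TSPAN12 (29.8 to 158 CPM), ING3 (57.3 to 317 CPM) and CPED1 (5.07 to 65.8 CPM), all higher. On chromosome 1 a run of 5 in the epidermal differentiation region was lower, with FLG (filaggrin, 22.4 to 1.16 CPM) and HRNR (hornerin, 29.5 to 3.25 CPM), 2 genes of the skin barrier. On chromosome 3 WNT5A and its antisense RNA rose beside ERC2, and FGF12 rose beside MB21D2. On chromosome 16 the metallothioneins MT2A, MT1F, MT1G and MT1X formed a run of lower genes, and on chromosome 22 a run around SLC5A1 was higher.

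**Figure D4:**
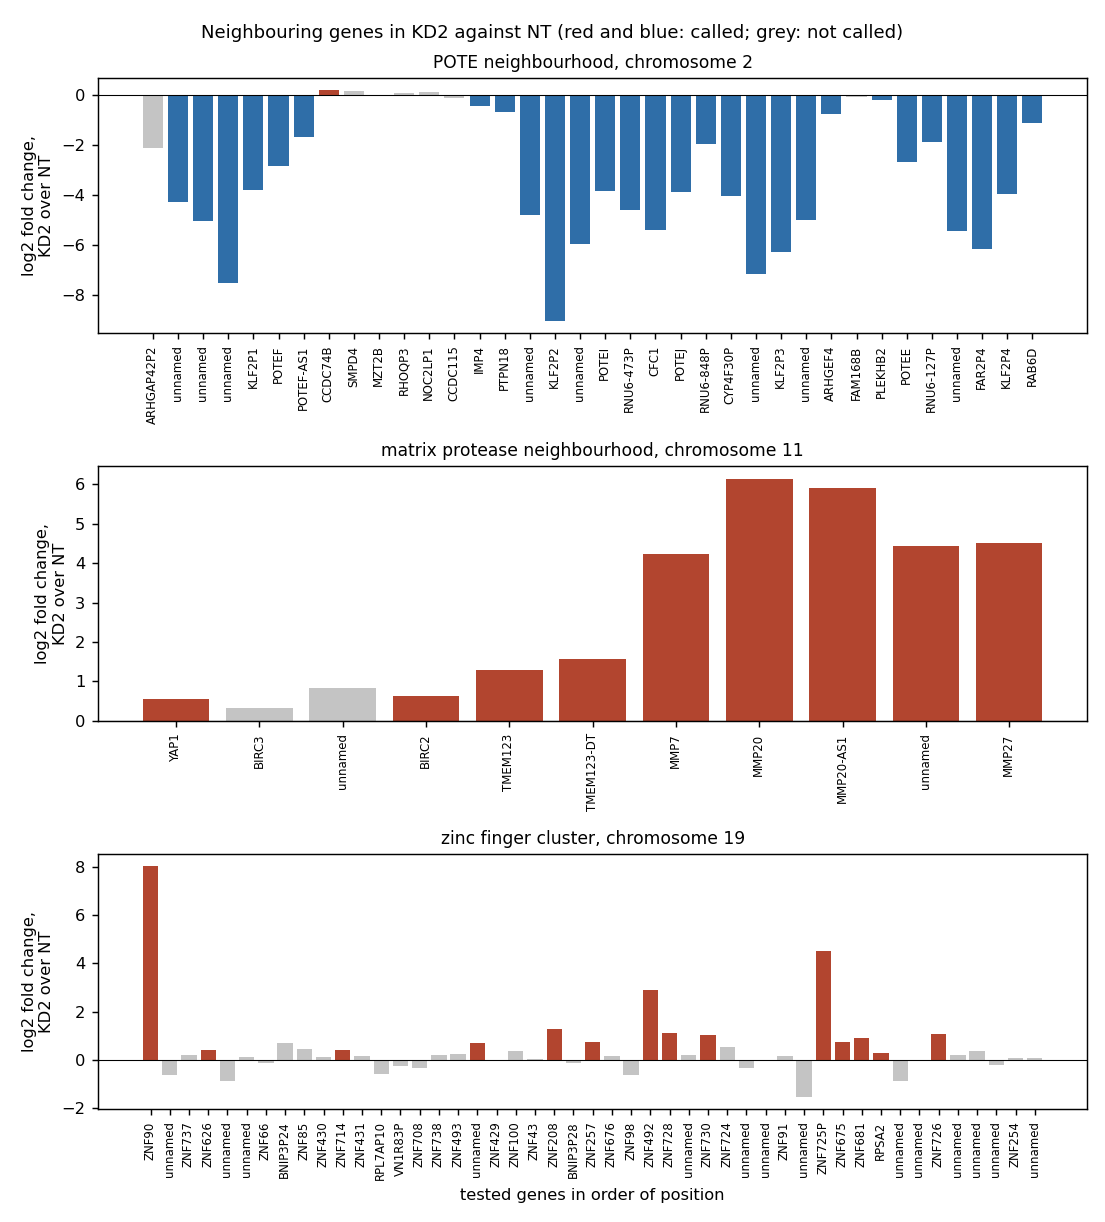
Log2 fold change (KD2 over NT) of tested genes in order of position in 3 neighbourhoods; red and blue bars are called, grey bars are not, and genes without a symbol are marked unnamed, and the bar of a gene with 3 counts or fewer in a group depends on the prior count of the fit. In the upper panel 28 of 36 genes are lower, in the middle panel 9 of 11 are higher, and in the lower panel 14 of 47 are higher and 0 lower.

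Zinc finger genes named ZNF, some of which are repressors that silence repeats, rose in 92 and fell in 58 of 475 tested. Those in the cluster of chromosome 19 between 20077994 and 24129968 rose in 12 and fell in 0 of 28, with a median of 0.37, against 80 and 58 of 447 elsewhere (median 0.05). ZNF681 (15.4 to 28.7 CPM), ZNF208 (4.68 to 11.4 CPM) and ZNF726 (5.47 to 11.4 CPM) rose in the cluster. Related zinc finger genes share sequence, which makes single copies less sure. Intergenic RNAs named LINC leaned lower, with 31 of 336 higher and 58 lower, as did antisense RNAs, with 48 of 693 higher and 90 lower. For calls of any size, both shares were below the background of all genes in each direction. By at least 2-fold, 14 LINC genes rose and 39 fell, and 26 antisense RNAs rose and 44 fell. At that size the shares that fell were above the 4.81% of all tested genes. The shares that rose were below the 4.46% of all tested genes.

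Leaving out NT replicate 2 changed the median of a list by less than 0.1 in 87 of 97 lists. The largest shift, of 0.20, was in class II antigen presentation, from 0.22 to 0.42. Of the 60 lists with a median of at least 0.1 in size, 1 changed sign, potassium channels (0.11 with all libraries and -0.06 without). Some small counts moved much in proportion. Without it, called higher genes went from 4 to 7 for the lysosome, 3 to 6 for the proteasome and 1 to 3 for autophagy. They went from 3 to 5 for Rab GTPases, 2 to 5 for cytosolic tRNA synthetases and 3 to 5 for tetraspanins. They went from 2 to 3 for glutathione genes and 0 to 1 for the reductases. By number, larger moves were found among chromatin remodellers (19 to 26), phospholipid and triglyceride synthesis (10 to 16) and semaphorins (8 to 14). Called lower genes went from 4 to 6 in the WNT list and from 5 to 3 among chromatin remodellers. Among the lists that lead the account, the kinetochore had 39 genes higher and a median of 1.18 without it, the lysosome 27 lower and -0.18, and the secreted prostate proteins 16 lower and -0.61.

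**Figure D5:**
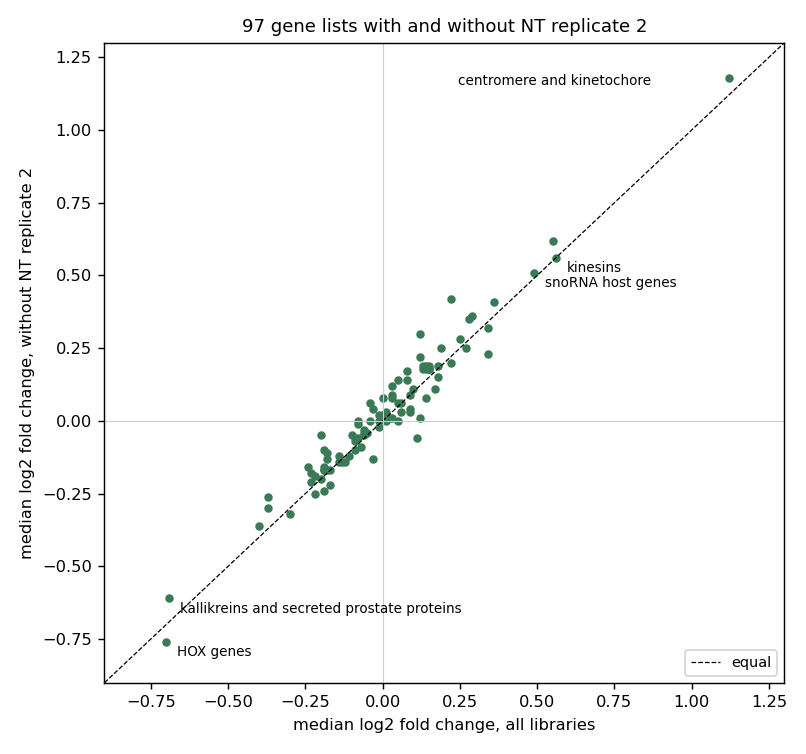
Median log2 fold change of each of 97 gene lists with all libraries (x) and without NT replicate 2 (y); the dashed line marks equal values. Points follow the line, with the kinetochore list at 1.12 and 1.18 at the upper end.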

How the data were processed

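Gene counts of 12 poly-A RNA-seq libraries were used as the authors deposited them, as raw counts per gene made with featureCounts 1.6.4 on GRCh38 with Ensembl release 111, per the file headers, which show no option for strand or read pairs. FastQC, cutadapt and HISAT2 are named in the submitters' processing notes, without versions or settings. Of 63241 gene IDs, 40868 matched a symbol in the reference table, with 99.3% of counts.

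All 12 libraries were fitted together by group in edgeR 4.0.16 (R 4.3.3), with its own filter on low counts, TMM scaling and the quasi-likelihood test, after the code was tested on simulated data. The contrast was KD2 minus NT, and a gene was called at a Benjamini-Hochberg adjusted p under 0.05 over the 19373 genes tested. CPM values use TMM library sizes. Totals ran from 23786288 to 38240369 counts, and counting error is largest for genes with few counts. Lists are described by counts of called members and the median, with no test of the list.

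The members and the 97 lists were chosen with earlier results of these data known. Described in full were DHODH, CAD and UMPS. So were up to 6 called members of a list with the smallest adjusted p and at least 1 CPM. Genes among the 8 most abundant of those near silence in 1 group in each direction, and called genes of chromosome windows, were included too. Any other tested member of a list may be given with its values.

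Alternatives were other filters and scaling, DESeq2 1.42.0, limma 3.58.1 with library weights, the replicate block, 6 libraries left out in turn, and only NT and KD2 libraries. A fit of those libraries without NT replicate 2 was chosen after seeing the data. Promoter sequences are from RefSeq (GRCh38.p14). Results for a few genes are not reported here.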

Additional observations from a re-analysis of the deposited data

How the results depend on the processing

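The count of called genes was 6958 and ran from 5658 (only NT and KD2 libraries) to 7582 (without NT replicate 2) over 14 alternatives. It was 6944 with DESeq2, 7183 with limma and library weights, 6879 with no filter on low counts, 6813 with a filter of 1 CPM in 3 libraries, 6957 with DESeq2 size factors, and 7081 for only NT and KD2 libraries without NT replicate 2. Leaving out each library in turn gave 5958 to 7582. With the replicate number as a block it was 6882. The numbers do not pair the libraries by the labels, and same-numbered NT and KD2 libraries deviated with correlations of 0.118, 0.00653 and -0.0495. No named gene changed sign in an alternative where it was called in that fit or in the main fit. Sign changes of genes called in neither fit were not counted. Of the 278 named genes, 5 that were called lost the call in at least 1: UMPS in 10 alternatives, CCDC74B in 5, CTNNB1 in 4, DUSP1 in 4 and ESRP2 in 1, and the cause was not tested. Another 8 that were not called gained a call in at least 1: POTEH in 5, DHODH and SMPD4 in 3 each, CENPX in 2, and PMF1, SKA2, TWIST1 and ZW10 in 1 each. Beside the medians given above, that of core histone genes (0.12) was -0.13 with a filter of 1 CPM and -0.03 without KD2 replicate 1, that of the WNT list (0.15) was 0.06 with that filter and 0.08 without NT replicate 3, KD2 replicate 2 or KD2 replicate 3, that of amino acid carriers (-0.17) was -0.11 without NT replicate 1, and that of epithelial regulators (-0.18) was -0.11 without KD2 replicate 2. The median of matrix proteases (0.15) was 0.24 for only NT and KD2 libraries without NT replicate 2, and that of mesenchymal genes 0.61. Depth limits genes near 0 counts, whose fitted fold changes depend on the prior count.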
